A study of Mus musculus with 32 samples.

Results

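The genes described here belong to the bone morphogenetic protein (BMP) pathway: the secreted BMP inhibitor noggin (Nog), the ligands Bmp4 and Bmp7, the target genes Id1, Id2, Id3, Id4 and Msx1, and the feedback inhibitors Smad6 and Smad7. All probes of the non-normalized table that carried one of these 10 names were taken. They were 11 probes for 9 genes, out of 25697 probes and 16593 named genes. Smad7 was not analysed here. The genes were picked with mutant changes of these data already known, so their changes and adjusted p values are given as a description and no weight is placed on their number.

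RNA was measured in mouse olfactory bulbs on Illumina bead arrays, 1 array per sample and 8 arrays per group, on a mixed C57/BL6, 129/Ola and CD1 background. The E18.5 mutants, late embryos, carried a GFP and a delta allele of Tshz1, and the E18.5 controls a GFP and a wild-type allele. Tshz1 encodes a zinc finger transcription factor. The P30 mutants, young adults, carried a flox and a GFP allele, and the P30 controls a flox and a wild-type allele. All P30 animals, controls included, also carried Nestin-Cre, a recombinase driven in neural progenitors, and the E18.5 groups carried no Cre. Both E18.5 groups and the P30 mutants thus carried a GFP allele, and the P30 controls did not. The labels do not say that the 8 samples of a group came from separate animals, so p values measure the spread between these samples, which may be technical. The submitters later exchanged the control and mutant labels of the P30 samples, and the corrected labels are used here. No probe used here was named Tshz1, so the targeted gene could not serve as a check of the labels.

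BMP ligands are secreted dimers that bind paired serine/threonine kinase receptors, which phosphorylate Smad1, Smad5 and Smad9. These join Smad4 and, in the nucleus, switch on targets such as the Id genes, whose proteins bind E proteins and keep them from DNA. Noggin binds BMPs outside the cell and blocks their receptor contacts. It is known in the adult mouse forebrain from the ependymal cells that border the stem cell niche from which new bulb interneurons migrate.

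Between 40.1% and 55.2% of the probes were detected on an array. The median raw intensity of an array was 131.7 to 181 at E18.5 and 100.2 to 130 at P30, and precision is limited by the number of arrays. Each age occupied 2 chips of its own, with 4 mutants and 4 controls on each. All 10 markers of mitral and tufted cells, the projection neurons of the bulb, passed the detection filter at E18.5, and 9 of 10 did at P30, all but Uncx. On the first principal component, E18.5 controls 6 and 8 and P30 mutants 1 and 2 lay farthest from the other arrays of their age, and results are also given without them where the call changes. Values are log2 intensities normalized within each age unless stated, and a call is a Benjamini-Hochberg adjusted p under 0.05 in limma over all probes of the comparison (14455 at E18.5 and 12950 at P30). All 11 probes passed the detection filter at both ages.

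Noggin was lower in the mutants at both ages. At E18.5 the probe read 6.64 at the lowest, 7.43 at the median and 7.58 at the highest in mutants, against 7.86, 8.25 and 8.60 in controls. All 8 mutants lay below all 8 controls, a separation that 0.256% of all probes showed in this direction and 0.0346% in the other. The means were 7.32 ± 0.30 in mutants and 8.24 ± 0.26 in controls (SD, n = 8 each), a change of -0.92 (SE 0.14), or 1.89-fold lower (limma adjusted p = 0.00185). It was the 24th largest fall of 14455 probes. On chip A the change was -0.83 and on chip B -1.01, and it was -0.86 without controls 6 and 8 (adjusted p = 0.00757). Nog was the 1 member probe of 11 that passed at E18.5, where 0.484% of all probes passed, 0.415% as lower and 0.0692% as higher. In bulk tissue, fewer cells of a type and less RNA per cell cannot be told apart.

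At P30 Nog read 5.64, 6.15 and 6.76 in mutants (lowest, median and highest), against 6.45, 6.78 and 7.37 in controls. Of 8 mutants, 7 lay below every control, and mutant 5 lay within the control range. The means were 6.18 ± 0.31 in mutants and 6.82 ± 0.35 in controls (SD, n = 8 each), a change of -0.64 (SE 0.18), or 1.56-fold lower (limma adjusted p = 0.0370), with -0.77 on chip A and -0.52 on chip B. It was detected on 6 of 8 mutant arrays and on all 8 control arrays. This call was narrow: it was lost with median scaling (adjusted p = 0.0958), without a filter on dim probes (adjusted p = 0.0526), without mutants 1 and 2 together (-0.55, adjusted p = 0.0799), and without any one of controls 2, 3, 5, 6 and 7 or mutants 1, 2, 3, 4, 7 and 8 (limma adjusted p = 0.0501 to 0.0890, change -0.73 to -0.57 over the 16 arrays left out in turn). The mutant change at P30 minus that at E18.5 was 0.05 (SE 0.24, 95% interval -0.44 to 0.54, limma adjusted p = 0.946, 32 arrays normalized together). With the arrays normalized together the Nog changes were -0.80 at P30 and -0.85 at E18.5, unlike those within each age. With median scaling the difference was 0.28 (limma adjusted p = 0.806). The plot of noggin by array shows both comparisons.

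**Figure D1:**
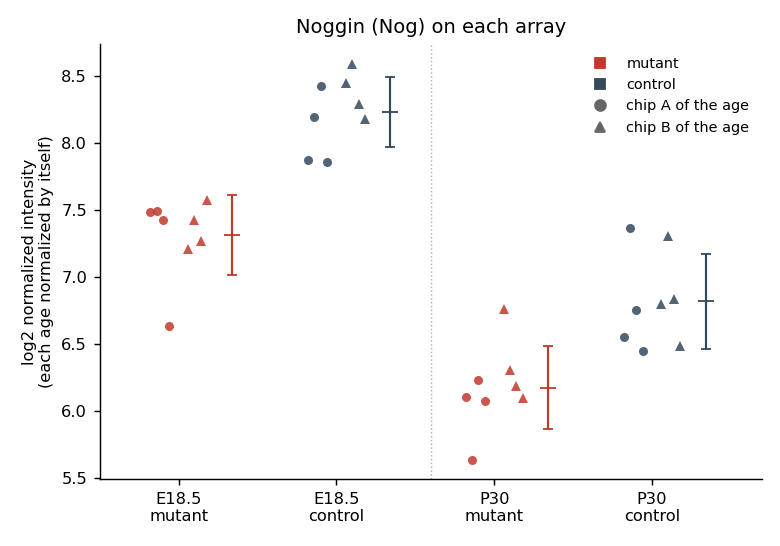
Noggin on each of 32 arrays: log2 normalized intensity (vertical axis, each age normalized by itself) for the 4 groups, with circles and triangles for chips A and B of that age and bars for mean ± SD (n = 8). The E18.5 mutants reach 7.58 at most and the E18.5 controls start at 7.86, while at P30 1 mutant at 6.76 lies among the controls; levels are not comparable between the ages on this axis.

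Neither ligand passed at either age. Bmp4, a ligand that favours astrocyte over neuron formation in neural progenitors in culture, read 8.96, 9.66 and 10.61 in E18.5 mutants (lowest, median and highest), against 8.91, 9.21 and 9.99 in E18.5 controls. The groups overlapped, and the change was 0.34 (SE 0.21, 95% interval -0.10 to 0.79, limma adjusted p = 0.668). At P30 Bmp4 read 6.64, 8.63 and 9.24 in mutants and 7.64, 8.42 and 9.21 in controls, a change of 0.02 (SE 0.30, limma adjusted p = 0.984). Its SD at P30 was 0.87 in mutants, the largest of the 11 probes there, and 0.47 in controls, and its change was -0.27 on chip A and 0.32 on chip B. Mutants 1 and 2, the arrays that stood apart, read lowest.

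Bmp7, a ligand also made by meninges and choroid plexus, read 9.93, 10.18 and 10.68 in E18.5 mutants, against 9.81, 10.07 and 10.80 in E18.5 controls, a change of 0.10 (SE 0.14, limma adjusted p = 0.854). At P30 it read 6.59, 7.25 and 7.90 in mutants and 6.04, 6.91 and 7.39 in controls, a change of 0.41 (SE 0.22, 95% interval -0.04 to 0.86, limma adjusted p = 0.382). The highest 3 mutants lay above every control, and the rest overlapped.

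The Id genes encode helix-loop-helix proteins without a DNA-binding region, and at P30 Id3 and Id4 rose, while Id1 and both Id2 probes did not pass. Whether the Id genes differ from each other in their change was not tested, and their intervals overlap. The promoter windows of the pair that rose and of Id2 are shown, to set their letters beside these changes. They are RefSeq windows in build GRCm38.p6, 250 bases before to 50 bases after the start site, 5′ to 3′ on the gene's strand, and 6 of the 10 listed genes had one (Id2, Id3, Id4, Msx1, Smad6 and Bmp4). Capitals mark GGCGCC, a sequence that Smad1 and Smad5 can bind, and CAGAC or its reverse complement GTCTG, which hold the Smad-binding CAGA and GTCT; both strands were searched, and these motifs do not overlap each other here.
Id3, chr4:136143572-136143871, plus strand: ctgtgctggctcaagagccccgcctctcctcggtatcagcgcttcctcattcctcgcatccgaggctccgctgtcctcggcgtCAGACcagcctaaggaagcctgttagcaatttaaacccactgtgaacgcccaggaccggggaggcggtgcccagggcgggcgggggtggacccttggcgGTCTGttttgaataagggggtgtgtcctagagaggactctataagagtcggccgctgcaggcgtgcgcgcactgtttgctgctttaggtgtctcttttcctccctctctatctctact
Id4, chr13:48260866-48261165, plus strand: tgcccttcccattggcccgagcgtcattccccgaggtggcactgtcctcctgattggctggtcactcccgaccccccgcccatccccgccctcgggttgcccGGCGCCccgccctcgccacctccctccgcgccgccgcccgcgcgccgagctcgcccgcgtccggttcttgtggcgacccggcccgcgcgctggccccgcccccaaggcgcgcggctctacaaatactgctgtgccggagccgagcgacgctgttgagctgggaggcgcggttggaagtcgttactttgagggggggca
Id2, chr12:25096043-25096342, minus strand: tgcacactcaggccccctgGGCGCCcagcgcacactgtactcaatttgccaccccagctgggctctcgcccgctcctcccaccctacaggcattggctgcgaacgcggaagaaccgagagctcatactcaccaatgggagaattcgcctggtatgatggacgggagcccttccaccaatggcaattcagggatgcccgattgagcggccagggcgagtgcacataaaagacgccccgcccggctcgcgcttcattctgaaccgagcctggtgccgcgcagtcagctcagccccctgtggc

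In these windows the Id4 promoter held 1 GGCGCC, whose first base lies at -148 from the start site, and the Id2 promoter 1 at -231. The Id3 promoter held 2 matches to CAGAC or its complement, at -167 and -68, and no GGCGCC. Of all 32851 promoter windows, 11.9% held a GGCGCC and 49.6% a CAGAC on either strand. The windows of Msx1, Smad6 and Bmp4 held neither GGCGCC nor CAGAC or its complement. The shorter CAGA and GTCT were not searched for on their own. They can occur without a mark, as GTCT does in the Smad6 window. The letters describe these windows only.

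Id3 read 7.55, 7.96 and 8.99 in P30 mutants (lowest, median and highest), against 6.68, 7.38 and 8.01 in P30 controls. All 8 mutants lay above the control median and 3 lay above every control. The means were 8.13 ± 0.46 in mutants and 7.34 ± 0.43 in controls (SD, n = 8 each), a rise of 0.79 (SE 0.21), or 1.73-fold (limma adjusted p = 0.0327), with 0.76 on chip A and 0.82 on chip B. Mutants 1 and 2, the arrays that stood apart, were the highest. Without both the change was 0.57 (limma adjusted p = 0.0913), and the call was also lost without any one of controls 5, 6, 7 and 8 or mutants 1, 2 and 4 (limma adjusted p = 0.0540 to 0.0799), without a filter on dim probes (0.0826) and with the deposited normalized table (0.0591).

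Id4, which in the nervous system marks astrocytes and neural stem cells, read 10.18, 10.35 and 10.87 in P30 mutants, against 8.62, 9.61 and 10.39 in P30 controls. All 8 mutants lay above the control median and 3 above every control. The means were 10.42 ± 0.23 in mutants and 9.60 ± 0.50 in controls (SD, n = 8 each), a rise of 0.83 (SE 0.19), or 1.77-fold (limma adjusted p = 0.0140), with 0.64 on chip A and 1.01 on chip B. Id4 passed with each of the 16 arrays left out in turn (limma adjusted p = 0.00332 to 0.0320) and without mutants 1 and 2 together (0.79, adjusted p = 0.0224).

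Id1, the classical BMP target, read 8.36, 8.78 and 9.50 in P30 mutants and 7.62, 8.30 and 8.67 in P30 controls. All 8 mutants lay above the control median and 5 above every control, yet the change of 0.55 (SE 0.19, 95% interval 0.15 to 0.95) did not pass over all probes (limma adjusted p = 0.122). Id2 was read by 2 probes. The brighter read 9.36, 10.16 and 11.09 in P30 mutants and 9.69, 10.14 and 10.68 in P30 controls, a change of 0.07 (SE 0.21, 95% interval -0.37 to 0.52, limma adjusted p = 0.925), and the dimmer had a change of 0.27 (SE 0.21, limma adjusted p = 0.616). The mutants spread more widely than the controls on the brighter Id2 probe, with 1 above and 2 below all controls.

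At E18.5 no Id probe passed, and the intervals show how large a change remains possible. Id1 had a change of -0.05 (95% interval -0.35 to 0.26), Id3 of -0.12 (-0.63 to 0.39), Id4 of 0.17 (-0.07 to 0.41) and the brighter Id2 probe of 0.04 (-0.21 to 0.28), with limma adjusted p between 0.693 and 0.941. For Id4, 7 of 8 mutants lay above the control median but none above every control, and without E18.5 controls 6 and 8 the Id3 change was 0.17 (adjusted p = 0.897).

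Msx1, a homeobox target of BMP signals, read 7.08, 7.59 and 7.86 in P30 mutants, against 6.48, 7.05 and 7.50 in P30 controls. Of 8 mutants 6 lay above every control, and the change was 0.55 (SE 0.16, 95% interval 0.22 to 0.88), 0.50 on chip A and 0.60 on chip B. Its limma adjusted p = 0.0525 missed the threshold, and it passed in 8 of 29 alternatives. Among these were chip as a block (limma adjusted p = 0.0335), replicate number as a block (the replicate block, 0.0302), an offset of 50 (0.0418) and no filter on dim probes (0.0454). They included the fits without control 5 (0.0292) and without mutant 4 (0.0288). At E18.5 Msx1 read 7.99, 8.24 and 9.15 in mutants and 7.96, 8.51 and 9.03 in controls, a change of -0.15 (SE 0.17, limma adjusted p = 0.796).

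Smad6, which blocks the receptors' activation of Smad1 and Smad5, was read by 2 probes. The brighter read 5.99, 6.47 and 7.20 in P30 mutants and 5.70, 6.10 and 6.49 in P30 controls, a change of 0.45 (SE 0.17, 95% interval 0.09 to 0.81, limma adjusted p = 0.170), with 0.68 on chip A and 0.23 on chip B. That probe was detected on 8 of 8 mutant and 7 of 8 control arrays. Its dimmer partner, detected on 4 of 8 mutant and 2 of 8 control arrays, had a change of 0.40 (SE 0.18, limma adjusted p = 0.261). At E18.5 the brighter probe had a change of -0.09 (SE 0.13) and the dimmer of 0.17 (SE 0.19), and their groups overlapped.

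**Figure D2:**
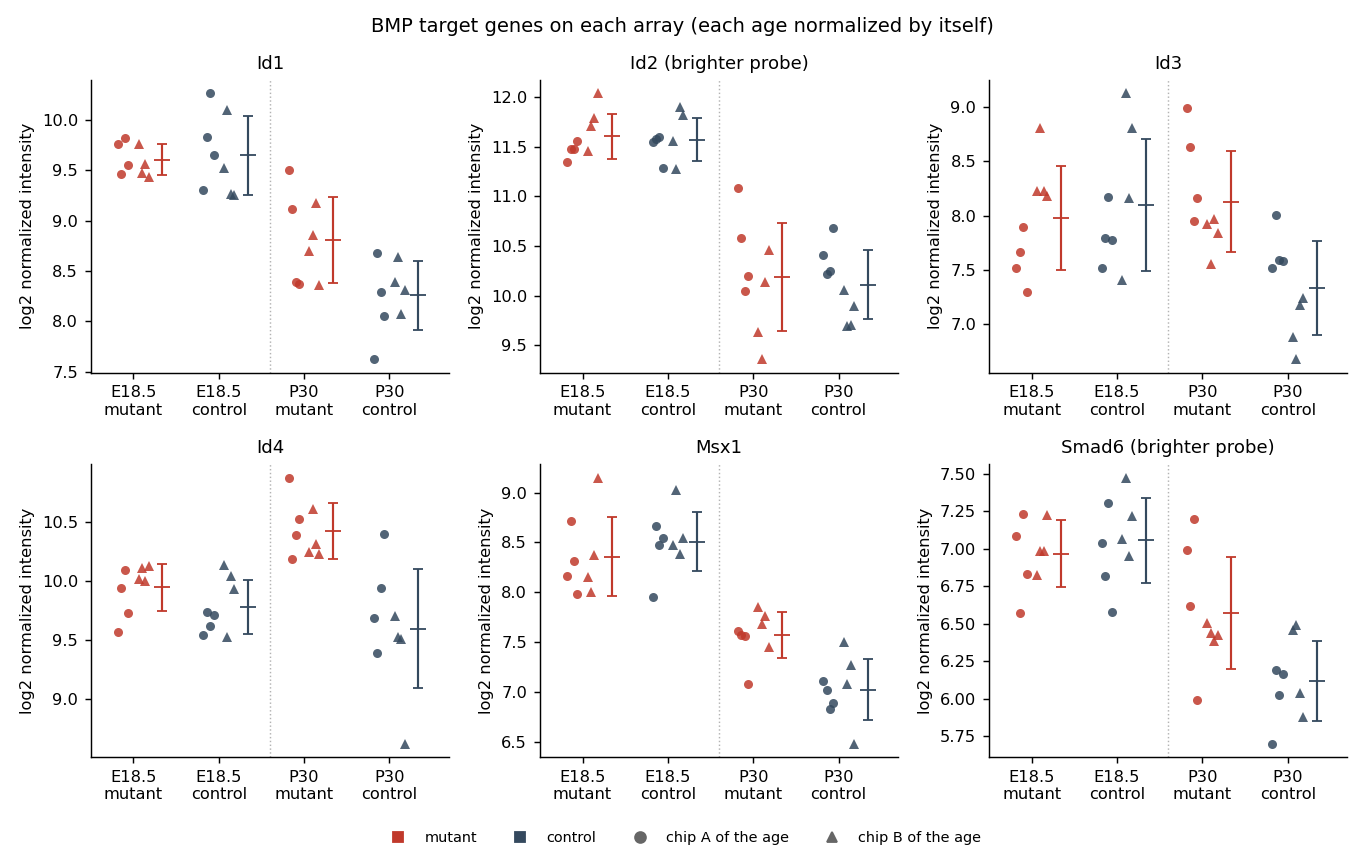
BMP target genes on each array: log2 normalized intensity (vertical axes, each age normalized by itself) in the 4 groups for Id1, Id2, Id3, Id4, Msx1 and Smad6 (the brighter probe where there are 2), with circles and triangles for chips A and B and bars for mean ± SD (n = 8). At P30 all 8 mutants lie above the control median for Id1, Id3, Id4 and Msx1, and at E18.5 mutants and controls overlap in all 6 panels.

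At P30, 2 of 11 member probes passed as higher and 1 as lower, where 1.78% and 2.23% of all probes did (4.01% in either direction). Of the 11, 10 had positive changes with a median of 0.41, and over all probes 50.3% were positive with a median near 0. At E18.5, 6 of 11 were positive with a median of 0.04. These shares were known when the genes were picked and are given as a description.

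**Figure D3:**
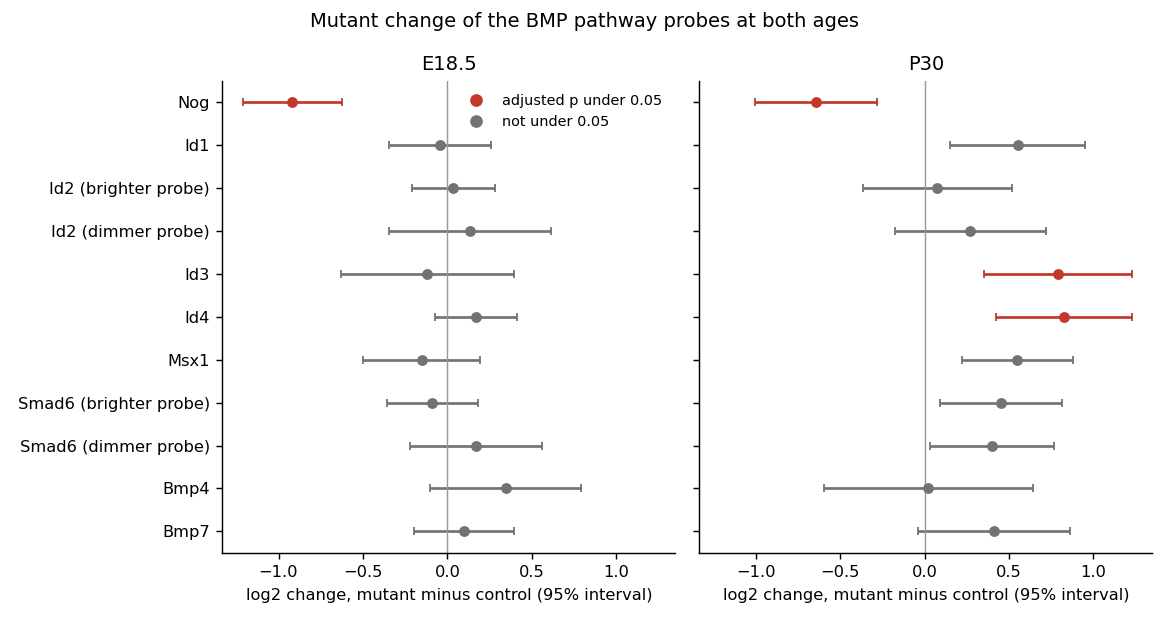
Log2 change, mutant minus control (horizontal axis), of the 11 probes at E18.5 (left) and P30 (right), with 95% intervals from limma and red where the adjusted p is under 0.05. Nog lies left of 0 at both ages, at -0.92 and -0.64, and Id3 and Id4 lie right of 0 at P30, at 0.79 and 0.83.

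Whether the mutant changes differ between the ages was tested directly, as the P30 change minus the E18.5 change over 32 arrays. No member probe passed (0 of 11, where 1.62% of all probes did, 0.814% as higher and 0.801% as lower). An unadjusted p under 0.05 was reached by 5, and the share of all probes that reached it was not computed. The differences were 0.76 for Msx1 (SE 0.23, limma adjusted p = 0.0851), 0.95 for Id3 (SE 0.33, adjusted p = 0.149), 0.63 for Id4 (SE 0.22, adjusted p = 0.165), 0.65 for the brighter Smad6 probe (SE 0.24, adjusted p = 0.178) and 0.60 for Id1 (SE 0.24, adjusted p = 0.257). With the replicate block 2 members passed and with chip as a block 1. The ages also differ in the mutant alleles, in Cre and in chips, which cannot be told apart from age.

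With quantile normalization, Bmp7 and Id4 had the largest changes of the 11 probes between the ages. In P30 controls Bmp7 read 6.54, 7.61 and 8.16 (lowest, median and highest, 32 arrays normalized together), against 9.30, 9.56 and 10.30 in E18.5 controls, so the groups did not overlap. It was 4.41-fold lower at P30 (change -2.14, SE 0.21, limma adjusted p = 7.27e-11). Id4 read 9.43, 10.39 and 11.15 in P30 controls and 9.01, 9.21 and 9.62 in E18.5 controls, 2.16-fold higher at P30 (change 1.11, SE 0.16, limma adjusted p = 2.15e-07), with 1 P30 control inside the E18.5 range. These were the 2 members of 11 that passed with a change of at least 2-fold, where 23.4% of all probes did, 11.0% as higher and 12.4% as lower.

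Scaling matters for this comparison. With median scaling in place of quantile normalization the median of all probes fell to -0.49 in P30 controls relative to E18.5 controls, against -0.03 with quantile normalization. Relative to that median Id4 was 0.84 higher and Bmp7 had a change of -2.33 with median scaling, against 1.14 and -2.11 with quantile normalization. Id4 itself then had a change of 0.35 (limma adjusted p = 0.0591) and no longer passed. By chip, Id4 was 1.49 higher at P30 on the A chips and 0.74 higher on the B chips. Id3 and Bmp4 turned from 0.46 each to -0.26 and -0.32 with median scaling and did not pass in either setting. Relative to the median of all probes both stayed positive. Id3 was 0.49 with quantile normalization and 0.23 with median scaling, and Bmp4 was 0.49 and 0.17. Nog (-0.26), Id1 (-0.07), Id2 (-0.20 on both probes), Msx1 (-0.28) and Smad6 (-0.04 and 0.13) did not pass with quantile normalization. With median scaling 6 of these 7 probes had an adjusted p under the threshold, with changes under 2-fold: Msx1 (-0.99), Id2 (-0.94 on the brighter and -0.86 on the dimmer probe), Nog (-0.90), Id1 (-0.88) and the brighter Smad6 probe (-0.43). These changes include the shift of the median of all probes, and relative to it they were -0.49, -0.45, -0.36, -0.41, -0.38 and 0.07. Age and chip cannot be told apart.

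**Figure D4:**
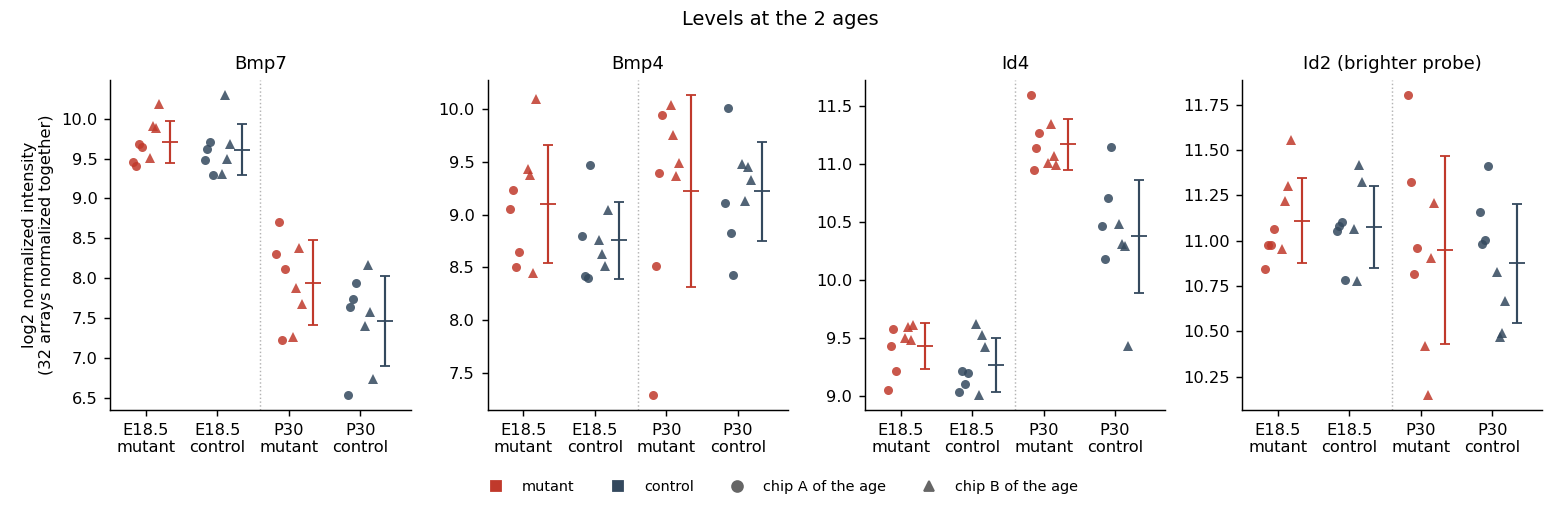
Levels of Bmp7, Bmp4, Id4 and Id2 (brighter probe) at both ages: log2 normalized intensity with all 32 arrays normalized together (vertical axes), groups along the horizontal axis, circles and triangles for chips A and B of that age and bars for mean ± SD (n = 8). Bmp7 lies below its E18.5 levels in all P30 arrays, and Id4 averages 11.17 in P30 mutants and 10.38 in P30 controls against 9.43 and 9.26 at E18.5.

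By the root mean square difference of centred log2 values over 32 arrays, a measure in which 0 is an identical pattern, the genes most like Bmp7 were Smo, the transducer of hedgehog signals (0.328), Cdt1, a factor that licenses DNA replication (0.361), Ttyh3 (0.396), Pole, a DNA polymerase subunit (0.405), and Dyrk3 (0.408). The SD of Bmp7 over the same arrays was 1.09. Those most like Id4 were Mgll, the lipase that degrades an endocannabinoid (0.263), 2310022B05Rik (0.317), Nsmf (0.327), Apod, a lipid-carrying apolipoprotein (0.330), and Kcnc4, a potassium channel subunit (0.336), with an SD of 0.835 for Id4. For Nog, added after its values were seen, they were Tacr3, the neurokinin B receptor (0.407), Lnx2 (0.409), the homeobox gene Meis1 (0.421), Rimkla (0.433) and Gprin1 (0.433), close to its own SD of 0.542, so the likeness is weak. All arrays of an age share their chips.

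The wider pathway was described from lists of genes by role, with the brightest probe standing for a gene. At E18.5, 0 of 51 such genes passed (limma, adjusted over all probes), where 0.0700% of the named genes passed as higher and 0.500% as lower. Of the 51, 8 had an unadjusted p under 0.05, and the share of all named genes under it was not computed. The smallest p was that of Acvr2a, a type II receptor for activins and some BMPs (0.63, SE 0.16, limma adjusted p = 0.111). At P30, 3 of 44 passed: Bmpr1b and Rgma as higher and Cdkn1a as lower, where 1.97% and 2.33% of the named genes passed.

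Among the receptors and coreceptors at P30, 2 of 8 rose. Bmpr1b, a type I BMP receptor, rose on both its probes. The brighter averaged 8.76 ± 0.47 in mutants and 7.89 ± 0.34 in controls (SD, n = 8 each), a change of 0.87 (SE 0.20, limma adjusted p = 0.0119), 0.65 on chip A and 1.09 on chip B, which was lost with median scaling (adjusted p = 0.142). The dimmer rose by 0.96 (SE 0.18, limma adjusted p = 0.00264), and its groups did not overlap. Of all probes at P30, 0.456% showed such a separation as higher and 0.602% as lower. Rgma, a membrane-anchored BMP coreceptor and axon guidance molecule, averaged 10.52 ± 0.33 in mutants and 9.56 ± 0.76 in controls, a rise of 0.96 (SE 0.26, limma adjusted p = 0.0352). That call was lost without any one of controls 1, 6 and 7 or mutants 1, 2, 3, 4, 5 and 6 (limma adjusted p = 0.0509 to 0.0736) and without mutants 1 and 2 together (0.82, adjusted p = 0.0843). The Rgma call was also lost without a filter on dim probes (limma adjusted p = 0.114) and with the deposited normalized table (0.0822), and it held in 14 of 29 alternatives. The brighter Bmpr1a probe had a change of 0.23 and Acvr1 of -0.29 (SE 0.24 and 0.17), and neither passed.

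None of 12 other secreted inhibitors and modulators passed at P30. Fst, the activin and BMP inhibitor follistatin, had a change of -0.55 (SE 0.18, limma adjusted p = 0.0927) and was the 1 of the 12 with a negative change. Chrd, the BMP inhibitor chordin, had a change of 0.51 (SE 0.17, limma adjusted p = 0.0990). None of 3 other ligands passed: Bmp1, a protease that cleaves chordin and not a BMP-type ligand, had a change of 0.56 (SE 0.19), Bmp6 of 0.28 and Gdf10 of 0.27. Of 12 Smads and intracellular regulators 0 passed, and Smad1 and Smad5 had a change of 0.34 and 0.27 (SE 0.18 and 0.17). Among 7 other targets Cdkn1a, a cell cycle inhibitor also driven by p53, fell by 1.30 on the log2 scale on its brightest probe (SE 0.28, limma adjusted p = 0.00676) and by 0.97 on another (adjusted p = 0.0132), while the remaining probe had a change of -0.80 (adjusted p = 0.290, and 0.0121 without mutant 1). Tcf4, an E protein that Id proteins bind, had a change of 0.25 (SE 0.19) and did not pass.

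**Figure D5:**
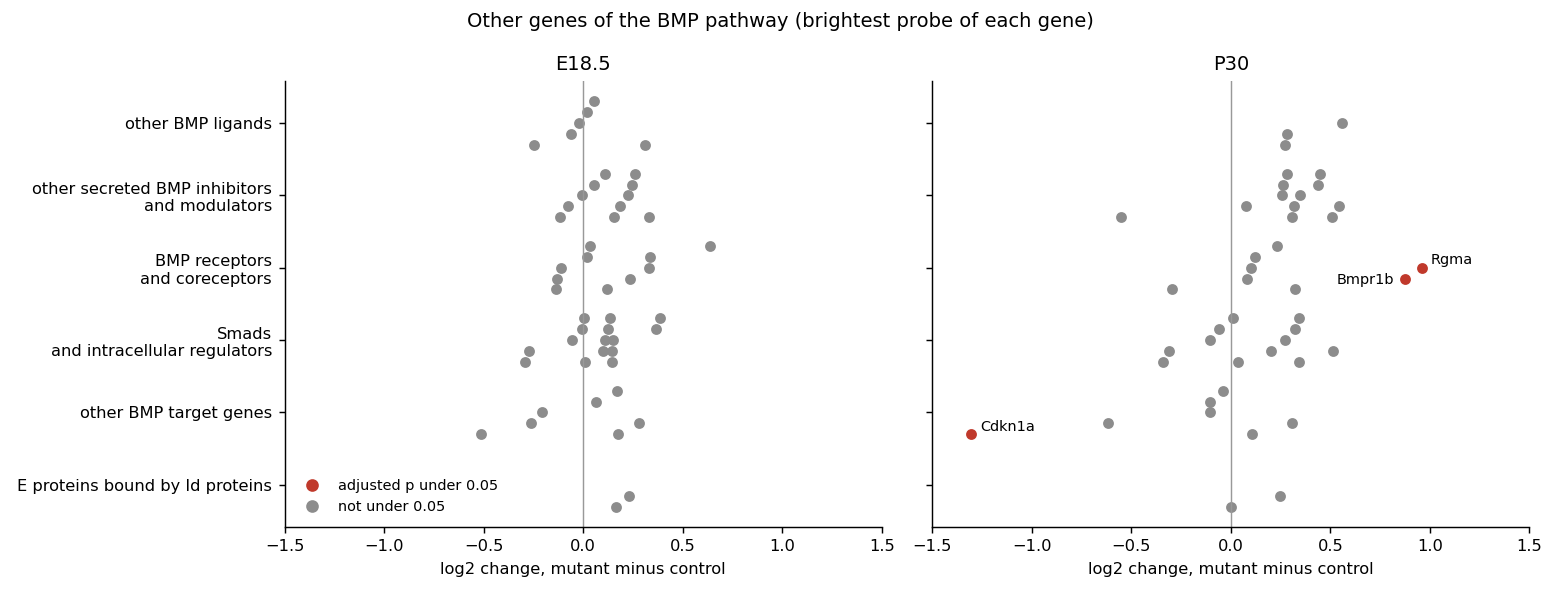
Log2 change, mutant minus control (horizontal axis), of the other BMP pathway genes at E18.5 (left) and P30 (right), 1 point per gene on its brightest probe, grouped by role (vertical axis), in red where the limma adjusted p is under 0.05. No gene is red at E18.5, and Bmpr1b (0.87), Rgma (0.96) and Cdkn1a (-1.30) are red at P30.

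Markers of glial and other cells moved at P30 as well, where 1.97% of the named genes passed as higher and 2.33% as lower. Of 9 astrocyte markers tested 1 rose, Gfap (1.48, SE 0.19, limma adjusted p = 2.61e-05), and all 9 changes were positive. The mean level of that list ran from 10.25 to 10.65 in mutants and from 9.95 to 10.37 in controls. Of 9 microglial markers 4 rose (C1qa, C1qb, C1qc and Trem2), with list means of 7.59 to 8.62 in mutants and 7.20 to 7.68 in controls, and of 7 radial glia and stem cell markers 2 rose (Tnc and Vim), with 8.55 to 9.22 in mutants and 8.35 to 8.67 in controls. Of 12 meningeal markers 1 rose (Foxc1), and 0 of 7 endothelial and pericyte, 0 of 6 ependymal and choroid plexus and 0 of 8 oligodendrocyte lineage markers passed. Of 7 ensheathing glia markers 2 rose (Npy and Frzb), and of 9 mitral and tufted cell markers 2 rose (Slc17a7 and Tbr1). All 9 changes of the mitral and tufted cell list were positive. Its list means ran from 9.557 to 10.07 in mutants and from 9.046 to 9.55 in controls, so the groups were apart by a narrow margin. The list means of the other secreted BMP inhibitors and modulators were apart as well, with 7.614 to 7.803 in mutants and 7.31 to 7.564 in controls. How often lists of other genes separate in this way was not tested. The list means of ependymal markers ran from 6.54 to 7.81 in mutants and from 6.54 to 7.03 in controls. The part of these cells in the changes of Nog, Id3 and Id4 was not tested. At E18.5 0 genes of these marker lists passed, where 0.0700% of the named genes passed as higher and 0.500% as lower. All 10 proliferation markers tested and all 6 ensheathing glia markers tested had positive changes at E18.5, with list means of 9.56 to 9.99 and 10.91 to 11.44 in mutants, against 9.50 to 9.72 and 10.66 to 11.24 in controls. Their part in the fall of Nog was not tested. Of the astrocyte markers at E18.5, Gfap, S100b and Fgfr3 did not pass the detection filter.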

How the data were processed

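Olfactory bulb RNA was made into biotin-labelled cRNA for Illumina bead arrays, per the labels' protocols. Per the file headers, the deposited raw table gives for each probe and array a mean intensity and a detection p-value, which the authors read out with GenomeStudio, per the labels. The deposited normalized intensity table was, from its values, quantile normalized over 32 arrays and background subtracted, with 25.7% of values below 0; it served as an alternative, with values under 1 set to 1 before log2.

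Raw intensities were processed with neqc (R 4.3.3, limma 3.58.1), which estimates background through the detection p-values, then adds 16, applies quantile normalization and converts the deposited intensities to log2, within each age for the mutant comparisons and over 32 arrays together for the comparisons between ages. Probes detected (p under 0.05) on at least 4 arrays of a fit were each tested with lmFit and eBayes (two-sided, adjusted by Benjamini-Hochberg over all probes) at a threshold of 0.05, plus a change of at least 2-fold between the controls of the ages. The code was tested on simulated data.

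The members and lists were chosen with earlier results of these data known. Their counts, and the shares of all probes or genes printed beside them, are therefore a description only. Named were all members, every gene of the wider pathway lists that passed in a mutant comparison (at most 12 each), and the 5 genes most like the 2 members that varied most between groups. Other pathway genes, marker genes and those like Nog were named after their values were seen. Same-numbered mutants and controls deviated together at E18.5 (r = 0.131 to 0.350, 8 of 8 pairs over 0.1). They also shared a chip, and the same-numbered partner was the best match in 3 of 8 pairs. The main fits of both ages held genotype only and were not paired. Replicate number entered only as an alternative, the replicate block. The alternatives were median scaling, an offset of 50, the deposited table, no filter or detection on 8 arrays, 1 probe a gene, array weights, chip as a block, each chip alone, the replicate block, joint normalization, each replicate left out, and E18.5 controls 6 and 8 left out. Leaving out P30 mutants 1 and 2 was added after seeing the data.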

Additional observations from a re-analysis of the deposited data

Results flagged for a closer look

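Of 44 groups of 8 arrays examined, 3 held a sample far from the others by Dixon's criterion, which chance alone gives in about 1 in 20 groups. For Nog, E18.5 mutant 4 read lowest at 6.636, below the next at 7.209, a gap of 0.608 of the group's range. For the dimmer Smad6 probe, E18.5 mutant 2 read highest at 6.743, above the next at 6.097 (0.552 of the range). For Bmp7, E18.5 control 6, an array that stood apart over all probes, read highest at 10.8, above the next at 10.22 (0.593 of the range).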

How the results depend on the processing

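The fall of Nog at E18.5 passed in 27 of 29 alternatives and with each of 16 arrays left out (change -0.97 to -0.82); it did not pass on chip A alone (-0.82) or chip B alone (-1.01). Nog at P30 passed in 13 of 29, Id3 in 18 and Id4 in 27. With the replicate block the adjusted p was 0.0033 for Nog at E18.5, and 0.0485 for Nog, 0.00592 for Id3 and 0.00968 for Id4 at P30, where same-numbered pairs correlated at -0.0569 to 0.426; Msx1 at P30 then passed and the calls of Nog, Id3 and Id4 did not change. Probes called between mutants and controls numbered 70 at E18.5 (32 on chip A, 3 on chip B, 53 to 79 with an array left out) and 519 at P30 (872 with array weights, 145 on chip A, 202 on chip B, 404 to 553 with an array left out). The difference between ages had 244 calls, against 94 with median scaling, 152 with the deposited table, 414 with array weights, 430 with chip as a block, 458 with the replicate block, 95 on chip A, 34 on chip B, 143 without E18.5 controls 6 and 8 and 186 to 333 with an array left out. Member probes called were 0 on either chip at E18.5 (1 of 11 in all). At P30 they were 0 on chip A, 1 on chip B, 1 without mutants 1 and 2, 2 with median scaling, the deposited table or no filter, 4 with an offset of 50, 1 probe a gene, array weights, chip as a block or the replicate block, and 1 to 3 with an array left out (3 in all). For the difference they were 1 with chip as a block, 2 with the replicate block and 0 to 1 with an array left out. Between the controls they were 1 with median scaling and 1 on chip B (2 in all). No value that changed sign was called after doing so; the largest such shifts were between the controls of the ages. With median scaling, the brighter Id2 probe was -0.031 at E18.5, -0.035 at P30 and -0.0046 for the difference, Bmp4 was -0.049 at P30 and -0.32 between the controls, and Id3 was -0.26 between the controls. Bmp4 at P30 was -0.0053 with the deposited table and -0.25 on chip A. With array weights Id3 at E18.5 was 0.012, the Nog difference -0.026 and the brighter Smad6 probe between the controls 0.069. On chip A alone the brighter Id2 probe was -0.038 at E18.5 and 0.13 between the controls, the dimmer Id2 probe 0.47 and the dimmer Smad6 probe -0.037 between the controls, and the Nog difference -0.18. On chip B alone Id1 was 0.023 at E18.5 and 0.14 between the controls, the brighter Bmpr1b probe -0.055 at E18.5, the brighter Id2 difference -0.057 and Id3 between the controls -0.19. Without E18.5 controls 6 and 8, Id3 at E18.5 was 0.17 and the brighter Smad6 probe 0.0080 at E18.5 and 0.041 between the controls. Without P30 mutants 1 and 2, the brighter Id2 probe was -0.14 at P30, and the differences were -0.17 for it, -0.11 for the dimmer Id2 probe and 0.10 for Bmp4. With an array left out, values ran over 0 for Bmp4 at P30 (-0.092 to 0.28), the brighter Bmpr1b probe (-0.061 to 0.11), Id1 (-0.10 to 0.043) and Id3 (-0.24 to 0.028) at E18.5, the brighter Id2 probe (-0.026 to 0.082 at E18.5, -0.054 to 0.19 at P30 and -0.089 to 0.15 for the difference), the Nog difference (-0.053 to 0.16), and Id1 (-0.13 to 0.021) and the brighter Smad6 probe (-0.11 to 0.036) between the controls. The causes were not tested. Signals near background limit the precision for Nog at P30, the brighter Smad6 probe at P30 and the dimmer Smad6 probe, which were not detected on every array.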
